A study of Mus musculus with 3 samples.

Results

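The platelet genes Pf4, Ppbp, Itga2b, Gp9, Gp1bb, Treml1, Tubb1 and Clec1b were followed across 3 libraries of mouse peripheral blood leukocytes. The 8 genes were taken by their symbols from the 19059 genes of the matrices, and all 8 were present. The libraries came from untreated mice aged 8, 9 and 10 weeks, with 1 library at each age, and are called replicates 1, 2 and 3. The labels give the genotype of all 3 as "Male" and 1 shared batch, and name neither a strain nor separate animals, so p-values measure the spread between these samples, which may be technical. Erythrocytes were lysed, cells were sorted after staining with the DNA dyes DAPI and Draq5, then fixed and counted with the probe-based fixed RNA kit of 10x Genomics. The joint detection of several platelet genes on 1 barcode was measured as a sign of attached platelets or of free platelet RNA.

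Platelets are fragments of megakaryocytes that have no nucleus and keep some of the megakaryocyte's RNA. They bind to leukocytes, mainly through P-selectin on the platelet and its ligand on the leukocyte, and such pairs can pass through a cell sorter as 1 event. RNA released from broken cells can also enter droplets and is then counted on barcodes of cells that did not make it. Pf4 and Ppbp encode chemokines stored in alpha granules. Itga2b encodes the integrin chain alpha-IIb of the fibrinogen receptor. Gp9 and Gp1bb encode subunits of the receptor complex for von Willebrand factor. Treml1 is a receptor stored in alpha granules and brought to the surface on activation, Tubb1 is the beta-tubulin of the platelet's marginal band, and Clec1b encodes CLEC-2, the receptor for podoplanin, which in mice has also been described on neutrophils.

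Pf4 and Ppbp are neighbours on the plus strand of mouse chromosome 5, with 2371 bases between the end of Ppbp and the start of Pf4, while Gp9 and Clec1b lie on chromosome 6, Itga2b on 11, Gp1bb on 16, Treml1 on 17 and Tubb1 on 2. Their promoters, 250 bases upstream of each RefSeq gene start, are shown for both chemokine genes, which appeared together on barcodes, and for Clec1b and Gp1bb, which in some leukocytes appeared without the other members. The sequences are from RefSeq on GRCm38.p6 and run 5′ to 3′ on the strand of the gene. Capitals mark matches on either strand. For GATA factors the word AGATAA was searched together with its variant TGATAA, followed by the word AGATAG together with its variant TGATAG. For ETS factors the word AGGAAG was searched together with its variant CGGAAG.
Ppbp, chr5:90768268-90768517, plus strand: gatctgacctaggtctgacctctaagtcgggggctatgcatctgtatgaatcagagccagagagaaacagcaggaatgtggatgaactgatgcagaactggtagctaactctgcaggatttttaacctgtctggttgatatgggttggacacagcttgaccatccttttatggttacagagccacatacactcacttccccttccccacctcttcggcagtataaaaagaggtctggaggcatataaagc
Pf4, chr5:90772185-90772434, plus strand: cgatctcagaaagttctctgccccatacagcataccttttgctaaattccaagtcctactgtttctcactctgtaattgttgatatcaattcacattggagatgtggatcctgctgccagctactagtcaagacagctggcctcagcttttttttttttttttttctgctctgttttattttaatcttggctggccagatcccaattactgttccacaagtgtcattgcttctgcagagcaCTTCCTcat
Clec1b, chr6:129397047-129397296, plus strand: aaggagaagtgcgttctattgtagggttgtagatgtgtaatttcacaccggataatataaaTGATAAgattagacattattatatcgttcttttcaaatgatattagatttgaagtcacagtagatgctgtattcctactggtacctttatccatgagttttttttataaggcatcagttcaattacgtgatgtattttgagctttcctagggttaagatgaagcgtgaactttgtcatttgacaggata
Gp1bb, chr16:18622404-18622653, minus strand: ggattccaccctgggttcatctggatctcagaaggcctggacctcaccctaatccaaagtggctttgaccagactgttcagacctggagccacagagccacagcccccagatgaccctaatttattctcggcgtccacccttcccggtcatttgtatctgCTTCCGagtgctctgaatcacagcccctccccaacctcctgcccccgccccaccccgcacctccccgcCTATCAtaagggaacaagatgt
A GATA word was present in 2 of the 8 members' promoters (Clec1b and Gp1bb), against 27.1% of 27025 promoters. An ETS word was present in 5 of the 8, against 39.0% of the promoters. A match is only a description of these letters, and the GATA and ETS words do not overlap each other in the promoters printed.

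Replicates 1, 2 and 3 held 45718031, 19591648 and 23443660 UMIs in 11105, 5736 and 7029 barcodes, with medians of 3539, 3138 and 3086 UMIs. The 8 genes took 197 UMIs in every 1000000 in replicate 1, 1072 in replicate 2 and 871 in replicate 3, so replicate 1 stood apart. Barcodes were assigned by raw counts of marker genes, with no member among the markers. A leukocyte class needed UMIs of at least 3 of its markers and at least 80% of the UMIs of the 5 leukocyte lists. A platelet event needed 3 of 12 other platelet genes and fewer than 3 markers of every leukocyte list. This gave 2643 neutrophils, 1324 monocytes, 9826 B cells, 6269 T cells, 884 NK cells and 411 platelet events. Libraries shared 83, 101 and 48 barcode sequences between replicates 1 and 2, 1 and 3, and 2 and 3. The neutrophil gene S100a8 was found on 19.5%, 18.0% and 11.3% of B cells in replicates 1, 2 and 3, at medians of 3226, 3206 and 3080 UMIs. Together, S100a8 and S100a9 averaged 0.848, 0.991 and 0.554 UMIs per B cell, and the source of these counts was not tested. No doublet caller was applied to the main results, so a leukocyte barcode may hold a second cell.

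The label of the 8 genes as platelet genes held in the barcodes called from other platelet genes. Platelet events were 0.405%, 3.50% and 2.35% of barcodes and held 74.8% of all UMIs of the 8 genes. Ppbp was detected in 96.7% ± 2.29 of platelet events (SD, n = 3 libraries here and below), Tubb1 in 95.8% ± 3.26, Pf4 in 92.5% ± 6.99, Itga2b in 91.8% ± 7.34, Clec1b in 85.2% ± 10.7, Gp9 in 83.1% ± 8.96 and Treml1 in 65.6% ± 14.97. Gp1bb was the exception, with a UMI in 9.63% ± 1.92 of platelet events. Platelet events were shallow, with library medians of 1041 to 1427 UMIs. None of the platelet events had 3 markers of a leukocyte list, as the call requires.

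On leukocytes, 6 of the 8 genes were found in every class at similar shares, and those shares moved with the library more than with the class. Ppbp was detected on 0.779%, 17.6% and 9.64% of all leukocytes in replicates 1, 2 and 3. Pf4 was detected on 0.405%, 9.19% and 5.14%. Replicate 2 was highest and replicate 1 lowest for both chemokine genes, in the same order as the share of platelet events. The haemoglobin genes, which mark erythrocytes, followed the same order, with 4.76, 101 and 21.4 UMIs per B cell in replicates 1, 2 and 3. At least 1 of the 8 genes was found on 3.26%, 27.4% and 15.8% of leukocytes.

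**Figure D1:**
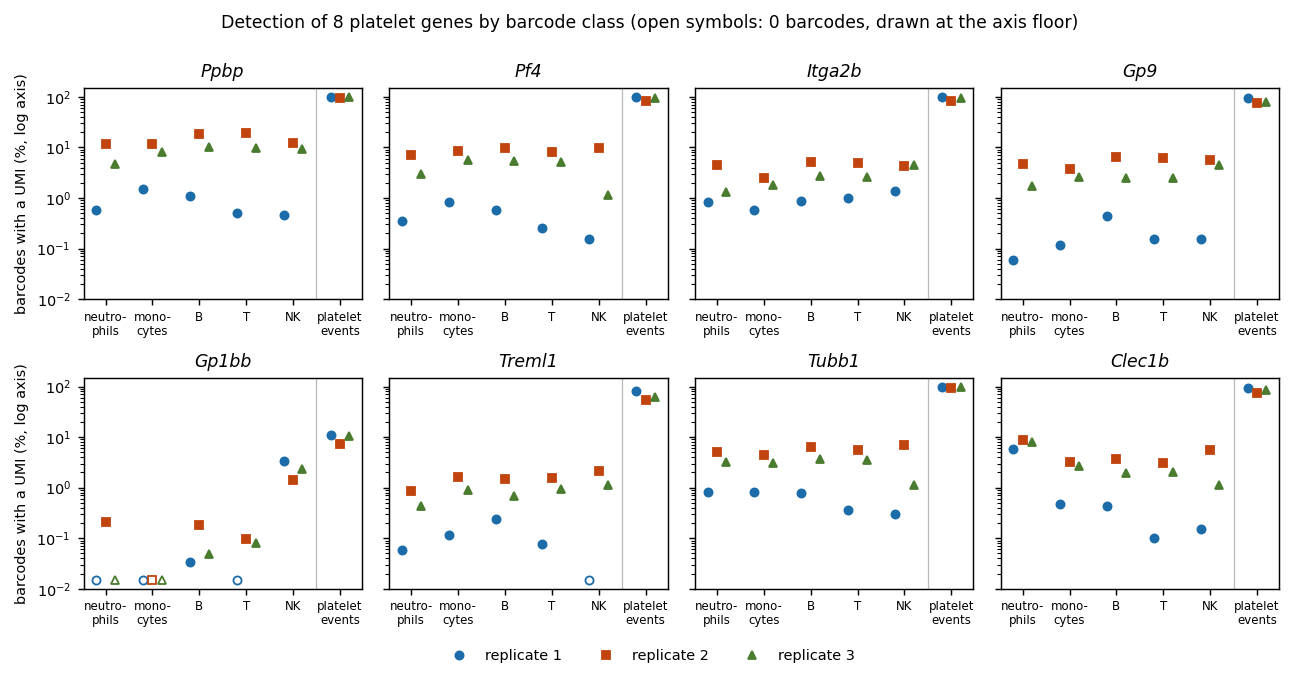
Share of barcodes with at least 1 UMI of each gene (log axis) in the 5 leukocyte classes and, right of the line, in platelet events, with 1 symbol for each replicate and open symbols for 0 barcodes. Replicate 1 lies lowest in most classes, while Clec1b is highest in neutrophils and Gp1bb in NK cells.

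By level, Ppbp averaged 95.2 ± 49.5 CPM (counts per 1000000 counts of the class) in B cells, 85.1 ± 72.9 in NK cells, 62.8 ± 51.5 in T cells, 53.2 ± 42.6 in neutrophils and 28.2 ± 23.3 in monocytes, against 20734 ± 3416 in platelet events. No neighbours in this order differed by more than their spread between replicates. The same held for the order of Pf4, Itga2b, Gp9, Treml1 and Tubb1. The exceptions were Clec1b, whose first place in neutrophils lay beyond the spread, and Gp1bb, whose first place in NK cells did. Gp1bb was last in monocytes, at 0 UMIs against 2 UMIs in T cells, too few to order these classes. The spread used here is that between libraries, so it does not measure orders within a library. For Ppbp, neutrophils at 10.1, 95.3 and 54.3 CPM lay above monocytes at 2.76, 33.3 and 48.5 CPM in replicates 1, 2 and 3. B cells at 60.3, 152 and 73.4 CPM and NK cells at 3.93, 145 and 106 CPM changed order. Monocytes, the deepest class, had the lowest mean CPM of all 8 genes. Per barcode they held the fewest member UMIs in replicates 1 and 2, but not in replicate 3. There they had 0.841, against 0.519 in neutrophils, 0.625 in B cells, 0.704 in T cells and 0.908 in NK cells. Fewer platelets on a class, less platelet RNA per platelet and a greater depth of the class cannot be told apart in such sums.

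The level in B cells of replicate 1 rested on 1 barcode. That B cell carried 790 of the 1391 member UMIs of its class and all 8 genes, together with all 12 genes of the platelet-event list. B cells of replicate 1 stood at 132 member CPM with it and at 57.0 without it. The richest barcodes of replicates 2 and 3, a B cell with 135 member UMIs and a T cell with 98, moved their classes less, to 365 CPM from 379 in replicate 2 and to 175 CPM from 196 in replicate 3.

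Counts were summed per library and class and compared between classes with edgeR's quasi-likelihood test, with the library as a block and Benjamini-Hochberg adjustment over 10909 genes, which included all 8 members. B cells, the largest class, were the comparator. These comparisons use the same B cell sums, so they are not independent of each other.

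Clec1b was higher in neutrophils than in B cells, and it was the only one of the 8 genes that was. It reached 23.7, 44.6 and 40.5 CPM in neutrophils of replicates 1, 2 and 3, against 6.06, 17.8 and 9.94 CPM in B cells, and every neutrophil value lay above every B cell value. The log2 fold was 3.01 (SE 0.54, edgeR adjusted p = 0.000674). In this comparison 37% of all genes tested were called higher and 43.8% lower, so 1 of 8 is below the background share. By share of barcodes, Clec1b was found on 5.94%, 8.76% and 7.84% of neutrophils, against 0.440%, 3.75% and 1.96% of B cells, although neutrophils had the lower median depth. Across replicates the neutrophil share moved far less than that of Ppbp, which was 0.583%, 11.5% and 4.79% on neutrophils. With plain library totals in place of the trimmed-mean (TMM) scaling, the median of all genes shifted to -1.31 on the log2 scale from -0.19, and Clec1b was still called higher, with a smaller log2 fold of 1.90.

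No member was called higher in monocytes than in B cells, by edgeR, by DESeq2 or at an unadjusted p under 0.05 in edgeR, where 35.4% of all genes were. Itga2b was lower, with 1.21, 4.92 and 10.7 CPM in monocytes against 15.3, 38.5 and 20.8 CPM in B cells. Its log2 fold was -2.22 (SE 0.46, edgeR adjusted p = 0.000957), and the groups did not overlap. In replicate 1, 1 B cell barcode held 70 of the 162 Itga2b UMIs of B cells, and the separation of the groups depends on it. Without the richest barcode of each library, Itga2b was still called lower. Gp9 was also called lower, with 0.172, 5.47 and 5.71 CPM in monocytes against 8.14, 33.7 and 11.6 CPM in B cells (log2 fold -2.35, SE 0.90, edgeR adjusted p = 0.0414). Without replicate 2 the Gp9 call was lost (edgeR adjusted p = 0.273), and without replicate 3 as well (0.0660). Of all genes 35% were called higher and 40.4% lower, so 2 of 8 lower is near or below the background. Monocytes are the deepest class, with library medians of 6307 to 8085 UMIs, so a given number of platelet UMIs makes a smaller CPM there. The share of this in the difference was not tested.

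In T cells, Itga2b was the only member called, with 3.46, 24.4 and 16.5 CPM against 15.3, 38.5 and 20.8 CPM in B cells. The log2 fold was -1.09 (SE 0.28, edgeR adjusted p = 0.00517), the groups overlapped, and 30.5% of all genes were called lower and 32.2% higher. No member was called higher, by edgeR, by DESeq2 or at an unadjusted p under 0.05 in edgeR, where 33.4% of all genes were. Without the richest barcode of each library, Gp9 and Pf4 were also called lower in T cells, and Pf4 and Ppbp also in monocytes. Neutrophils compared with monocytes gave 2 members called higher, Clec1b, with 23.7, 44.6 and 40.5 CPM in neutrophils and 0.862, 8.75 and 6.42 CPM in monocytes (log2 fold 4.07, SE 0.75, edgeR adjusted p = 0.000954) and Itga2b (log2 fold 2.63, SE 0.57, edgeR adjusted p = 0.00132), beside 34.5% of all genes called higher and 39.9% lower. Itga2b stood at 5.26, 29.5 and 17.01 CPM in neutrophils against 1.21, 4.92 and 10.7 CPM in monocytes, so the groups overlapped, and its call was lost without replicate 2 (edgeR adjusted p = 0.0681). Without the richest barcode of each library, Gp9, Pf4, Ppbp and Tubb1 were also called higher there.

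Gp1bb was the only member called in NK cells. It had 23, 2 and 2 UMIs in NK cells of replicates 1, 2 and 3, or 10.1, 3.72 and 6.44 CPM, against 0.0947, 0.539 and 0.146 CPM in B cells. The groups did not overlap, and the log2 fold was 4.90 (SE 0.74, edgeR adjusted p = 7.49e-07), while 25.1% of all genes were called higher and 29.7% lower. Without replicate 1 the gene fell under the filter on low counts and could not be tested, so it entered the test through the NK cells in which it is high. Gp1bb had 0 UMIs in 1324 monocytes, which allows a share with a UMI of up to 0.227%, a limit that covers counting error only.

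The gene overlapping Gp1bb was examined after its values were seen. Sept5, a septin gene, lies on the same strand, and on GRCm38 (GENCODE M21) its span on chromosome 16 from 18620502 to 18629954 overlaps that of Gp1bb, from 18620317 to 18622403, by 1902 bases. Sept5 was found on 14.3%, 13.5% and 13.8% of NK cells in replicates 1, 2 and 3, against 0.0339%, 0.0364% and 0% of B cells. Neutrophils had it on 2.39%, 3.63% and 1.74%. Platelet events had it on 0%, 0.498% and 1.21%. The build of the deposited files is not given in the sources used here and the probe positions were not analysed here, so whether Gp1bb counts in NK cells come from transcripts of Sept5 was not tested. Gp1bb is therefore reported as uncertain in NK cells.

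Detection of 1 gene alone and of several together gave different pictures. Leukocytes with exactly 1 of the 8 genes numbered 288, 812 and 694 in replicates 1, 2 and 3, and those with 3 or more, called joint here, numbered 24, 250 and 164. In replicate 1, the UMIs of single-gene leukocytes came 35.2% from Clec1b, 29.3% from Itga2b and 13.02% from Ppbp. In replicates 2 and 3, 54.9% and 52.8% came from Ppbp and 6.65% and 7.12% from Clec1b. Joint leukocytes were more alike between libraries, with Ppbp at 44.6%, 34.5% and 33.2% and Tubb1 at 24.8%, 26.0% and 29.5% of their member UMIs. Without the B cell with 790 UMIs, Ppbp stood at 33.9% and Tubb1 at 29.6% in replicate 1. Platelet events with 3 or more genes had Ppbp at 27.9%, 35.5% and 35.1% and Tubb1 at 39.3%, 31.6% and 32.6%. Gp9 took 6.17%, 8.95% and 6.11% of the UMIs on joint leukocytes, against 5.11%, 5.48% and 5.05% on those platelet events.

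**Figure D2:**
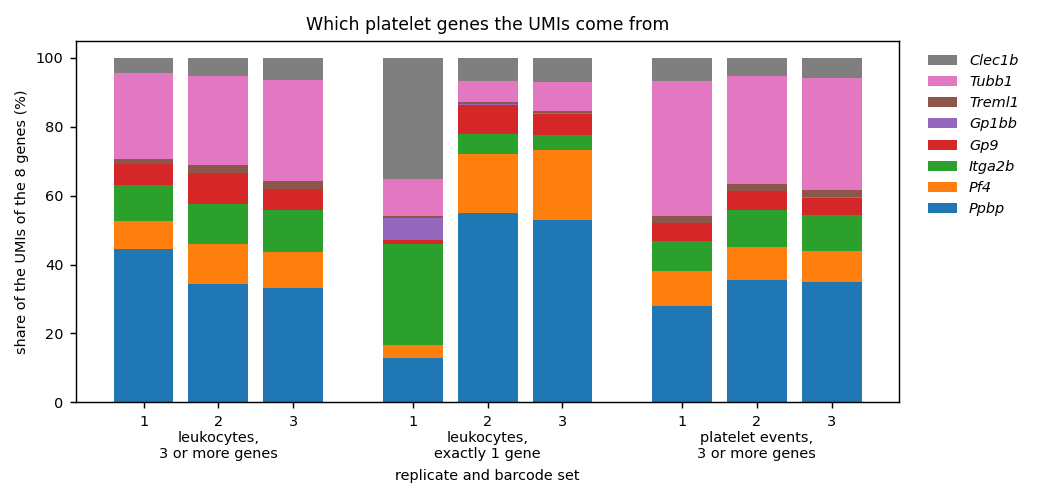
Share of the UMIs of the 8 genes that each gene supplied (y axis, %) in joint leukocytes, in leukocytes with exactly 1 gene and in platelet events with 3 or more genes, 1 bar for each replicate. Ppbp and Tubb1 lead in joint leukocytes and in platelet events, but Tubb1 is lower and Gp9 higher on joint leukocytes in each replicate. Requiring 3 or more genes itself makes for a mixed make-up. Single-gene leukocytes of replicate 1 are mostly Clec1b and Itga2b.

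Joint detection was found in all 5 leukocyte classes. The share with 3 or more of the 8 genes was 0.117%, 4.27% and 2.18% of neutrophils in replicates 1, 2 and 3. It was 0.234%, 4.10% and 3.10% of monocytes, 0.474%, 6.23% and 2.86% of B cells, 0.126%, 3.91% and 2.13% of T cells and 0.152%, 5.67% and 2.30% of NK cells. In platelet events it was 100%, 92.0% and 98.8%. Over libraries the means were 2.19% ± 2.08 in neutrophils, 2.48% ± 2.01 in monocytes, 3.19% ± 2.89 in B cells, 2.06% ± 1.89 in T cells and 2.71% ± 2.78 in NK cells. These means differed by less than the spread between libraries. Within libraries, which hold all 5 classes, 6 of the 10 pairs of classes stood in the same order in all 3. B cells lay above neutrophils, T cells and NK cells, NK cells above neutrophils and T cells, and monocytes above T cells. An exact two-sided paired permutation test over 3 libraries cannot go below 0.25, so these orders are a description. The lowest share of any class in replicates 2 and 3 lay above the highest share of any class in replicate 1. Without replicate 2 the means were 1.15% in neutrophils, 1.67% in monocytes, 1.67% in B cells, 1.13% in T cells and 1.23% in NK cells.

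Each number was set beside that expected if every gene were found independently at its own share within 10 depth groups of each class and library, as a description without a test. Over the leukocytes, 438 joint barcodes were observed, against 62.7 expected. The ratio was 7.20 in neutrophils, 9.59 in monocytes, 7.22 in B cells, 6.40 in T cells and 3.82 in NK cells. In a small depth group, a joint barcode raises its own expected number. NK cells of replicates 2 and 3 numbered 141 and 87 for 10 depth groups, so ratios of classes of unlike size are not compared. By library, 24 joint leukocytes were observed in replicate 1 against 0.315 expected, 250 in replicate 2 against 51.3, and 164 in replicate 3 against 11.1. The ratio was thus lowest in the library with the most platelet RNA and highest in the one with the least. Without replicate 2 it was 17.1 in neutrophils, 11.9 in monocytes, 18.4 in B cells, 13.1 in T cells and 8.55 in NK cells. With class calls at 95% of list UMIs it was 4.61 in neutrophils, 5.30 in monocytes and 1.36 in NK cells. With no depth groups it was 17.5 in monocytes and 8.22 in NK cells. With Clec1b and Gp1bb not counted it was 13.9 in neutrophils. With the calls of the doublet caller Scrublet removed, 16, 235 and 164 joint leukocytes remained in replicates 1, 2 and 3. Scrublet called 0.408% to 1.04% of the barcodes of a leukocyte class in replicate 1 and 0% in replicate 3. Whether joint barcodes hold a second cell was not tested.

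**Figure D3:**
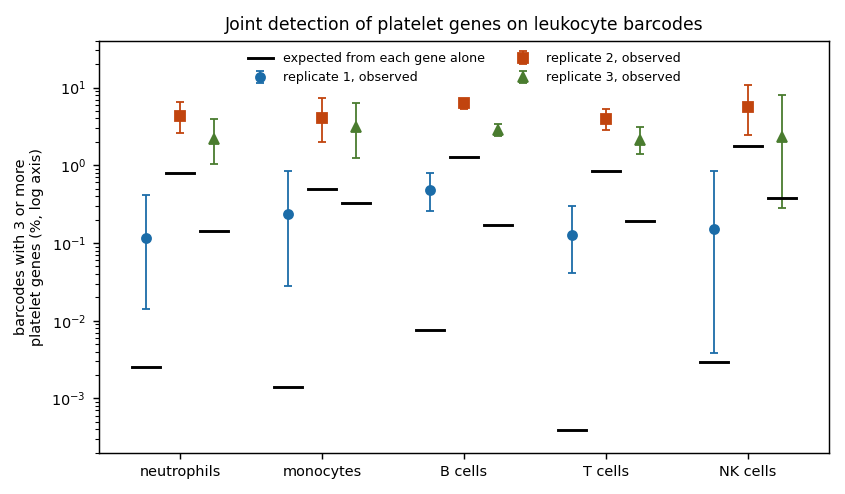
Share of barcodes with 3 or more of the 8 genes (log axis) in each leukocyte class and replicate, with exact 95% binomial intervals that cover counting error only; black lines give the share expected from each gene alone. All observed shares lie above their lines, and in NK cells of replicate 3 the line falls within the interval.

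Depth bears on these shares. With every barcode thinned to 1500 UMIs, which left out 1 to 143 shallower barcodes of a class and library, joint leukocytes were 0.118%, 2.92% and 2.05% of neutrophils, 0%, 0% and 1.38% of monocytes, 0.312%, 3.27% and 1.69% of B cells, 0.103%, 2.10% and 1.15% of T cells and 0.155%, 4.35% and 1.16% of NK cells. The monocyte mean fell to 0.461% when thinned, against 2.48% at full depth, so monocytes, the deepest class, kept fewest. Of the 6 orders seen in all 3 libraries at full depth, those of B cells and of NK cells above T cells were also seen in all 3 when thinned. When thinned, neutrophils also lay above monocytes and above T cells in all 3, and B cells above monocytes. At full depth neutrophils had been below monocytes in 2 of the 3.

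Every pair of the 7 genes other than Gp1bb was found together on leukocytes in all 3 libraries. Pf4 and Ppbp were found together on 30, 237 and 148 leukocytes of replicates 1, 2 and 3, with odds ratios of 538, 7.83 and 10.6. Ppbp and Tubb1, a chemokine and a cytoskeletal gene, were found together on 24, 190 and 139, with odds ratios of 121, 13.01 and 20.6. Itga2b and Clec1b, both surface receptors, were found together on 16, 64 and 58, with odds ratios of 19.2, 13.3 and 35.8. Replicate 1 had the fewest joint barcodes and, for both of these pairs with Ppbp, the highest odds ratios.

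The Clec1b of neutrophils came mostly without other platelet genes. Another of the 6 members other than Clec1b and Gp1bb was found on 2.94%, 41.5% and 22.2% of the neutrophils with Clec1b in replicates 1, 2 and 3, against 1.86%, 17.3% and 6.86% of the neutrophils without it. In B cells with Clec1b that share was 92.3%, 81.6% and 85.2%. Pooled, it was 28 of 179 neutrophils (15.6%) and 165 of 197 B cells (83.8%). For Treml1 in B cells it was 70 of 76 (92.1%), and for Tubb1 in B cells 269 of 349 (77.1%). Neighbouring lectin receptor genes were examined after their values were seen. Clec1a was found in neutrophils on 2.10%, 2.14% and 2.83%, against 0%, 0.109% and 0.0242% of B cells, and on 0% of platelet events in each replicate. Clec12b was found on 0.524%, 0.855% and 0.654% of neutrophils and on 0% of B cells and platelet events. Clec9a was found less on neutrophils, at 1.69%, 1.07% and 1.96%, than on monocytes, at 3.63%, 3.28% and 2.65%.

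Gp1bb in NK cells came mostly from replicate 1, where 1 of the 22 NK cells with it (4.55%) held another of those 6 members, against 1.74% of the NK cells without it. In replicates 2 and 3 it was 0 of 2 NK cells each. In B cells it was 1 of 1, 4 of 5 and 1 of 2 in replicates 1, 2 and 3, and in platelet events 37 of 37 over the libraries. Itga2b differed by library. In replicate 1 another member was found on 12.5% of the 40 T cells with Itga2b and 42.3% of the 26 B cells, against 70.6% and 81.7% in replicate 2 and 66.7% and 83.5% in replicate 3. In replicate 1, Itga2b was on 1.01% of T cells, above Ppbp at 0.506%. In B cells of that library it was on 0.880%, below Ppbp at 1.12%.

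**Figure D4:**
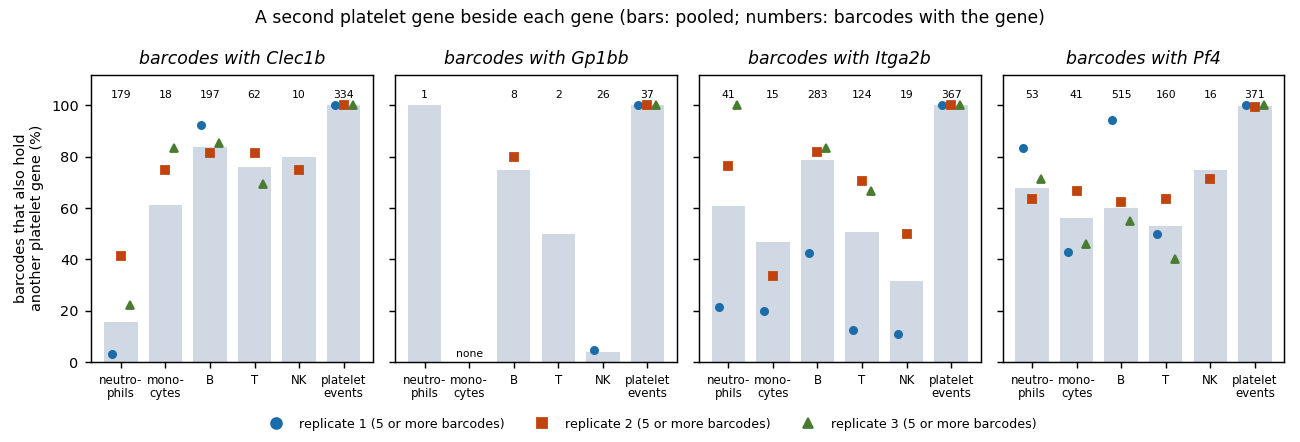
Share of the barcodes with Clec1b, Gp1bb, Itga2b or Pf4 that also held another of the 6 members other than Clec1b and Gp1bb (y axis, %), by class; bars pool the libraries, numbers give the barcodes with the gene, and symbols give replicates with 5 or more such barcodes. The bars for Clec1b in neutrophils (15.6%) and Gp1bb in NK cells (3.85%, with 22 of the 26 barcodes from replicate 1) are low, while platelet events stand near 100%.

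The number of platelet UMIs on a joint leukocyte was well below that on a platelet event. The median sum of the 8 genes on joint leukocytes was 22.5, 8 and 11 UMIs in replicates 1, 2 and 3, against 116, 44 and 70 UMIs on all platelet events. Leukocytes at or above the platelet-event median numbered 3, 14 and 5. Those at or above the lower quartile of platelet events, at 51, 15 and 49 UMIs, numbered 6, 68 and 11. The UMIs were concentrated on few barcodes, since joint barcodes held 80.4%, 69.2% and 69.9% of all member UMIs on leukocytes. The 1% of leukocytes with the most member UMIs held 88.7% in replicate 1, 37.6% in replicate 2 and 51.3% in replicate 3.

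Joint leukocytes were then compared with leukocytes that had none of the 8 genes, to see which other genes came along. Each of the 438 joint barcodes was matched to 3 barcodes with no member UMI from the same library and class with the nearest UMI total, which gave 24, 250 and 164 joint against 72, 750 and 492 matched barcodes. The 8 genes were left out. Of 8693 genes tested with edgeR's quasi-likelihood test at an adjusted p under 0.05, 260 (2.99%) were higher and 10 (0.115%) lower in joint leukocytes. Without replicate 3, 145 were higher. At least 3 of the 12 genes that call a platelet event were found on 95.8%, 68.4% and 69.5% of joint barcodes, against 0%, 0.533% and 0% of matched barcodes. Haemoglobin UMIs also moved with joint detection, with 139, 196 and 39.98 per joint barcode in replicates 1, 2 and 3, against 19.9, 102 and 27.0 per matched barcode, and their part in the result was not tested.

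Of 55 other platelet genes in the lists, 47 were tested, 32 were higher in joint leukocytes and 0 lower (DESeq2 29 and 0, edgeR at an unadjusted p under 0.05 36 and 0), with a median log2 fold of 1.91, against -0.01 over all genes tested. Without the 12 call genes, 21 of 35 were higher. The arms were chosen by platelet RNA, so higher levels of other platelet genes are partly built in. Genes with few or no UMIs on matched barcodes, in the lists or outside them, passed the low-count filter through the joint arm. Such genes could only be called higher, so these counts are a description. By role, 6 of 7 adhesion receptors, 7 of 7 genes of the cytoskeleton and cell shape, 3 of 3 enzymes of eicosanoid synthesis, 6 of 9 granule cargo genes, 4 of 6 receptors for platelet agonists and 4 of 5 genes of integrin activation were higher. Of 5 tested megakaryocyte regulators, 2 were higher, among them the transcription factor gene Nfe2, while Fli1, Runx1 and Zfpm1 were not called by edgeR. Of 5 genes of the ITAM signalling path, which platelets share with other blood cells, 0 were called by edgeR, by DESeq2 or at an unadjusted p under 0.05.

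Alox12, the platelet 12-lipoxygenase, stood at 586, 256 and 325 CPM in joint leukocytes of replicates 1, 2 and 3, against 0, 1.97 and 1.07 CPM in matched leukocytes (log2 fold 7.68, SE 0.23, edgeR adjusted p = 3.38e-45). Thbs1, the granule protein thrombospondin-1, stood at 1046, 639 and 840 CPM, against 0, 5.92 and 3.20 CPM in matched leukocytes (log2 fold 7.43, SE 0.18, edgeR adjusted p = 4.23e-22). Every joint value lay above every matched value for both. Both genes passed the low-count filter through the joint arm, and the arms were chosen by platelet RNA. These p-values and the separation are therefore a description. Clu, the granule protein clusterin, averaged 348 ± 108 CPM in joint and 1.41 ± 1.33 CPM in matched leukocytes. Mylk, the myosin light chain kinase, averaged 145 ± 63.0 CPM in joint and 0.507 ± 0.494 CPM in matched leukocytes.

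For genes with 1 to 3 UMIs on the matched barcodes, the pooled ratio of CPM is given with its exact 95% counting interval. Cavin2, a caveolar coat protein of platelets, had a ratio of 500 (88.6 to 19872) from 169 UMIs on joint and 1 UMI on matched barcodes. Gp1ba, the ligand-binding subunit of the von Willebrand factor receptor, had a ratio of 226 (61.6 to 1886) from 153 and 2 UMIs. Gp6, the collagen receptor, had a ratio of 246 (42.9 to 9818) from 83 and 1 UMI.

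The smallest differences called among the platelet lists were in genes that leukocytes also express. Bin2 averaged 648 ± 88.8 CPM in joint and 554 ± 50.2 CPM in matched leukocytes (log2 fold 0.26, edgeR adjusted p = 0.0269), and its call was lost without replicate 2 and without replicate 3. Fermt3, or kindlin-3, the integrin activator of blood cells, averaged 490 ± 84.2 CPM in joint and 241 ± 33.6 CPM in matched leukocytes. Tln1, or talin, averaged 853 ± 125 CPM in joint and 560 ± 32.8 CPM in matched leukocytes. Srgn, Flna, Rap1b, Rasgrp2 and Tbxas1 were the other called genes of this kind, with log2 folds of 0.36, 0.41, 0.43, 0.35 and 1.62. Without replicate 3, the calls of all 5 were lost.

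**Figure D5:**
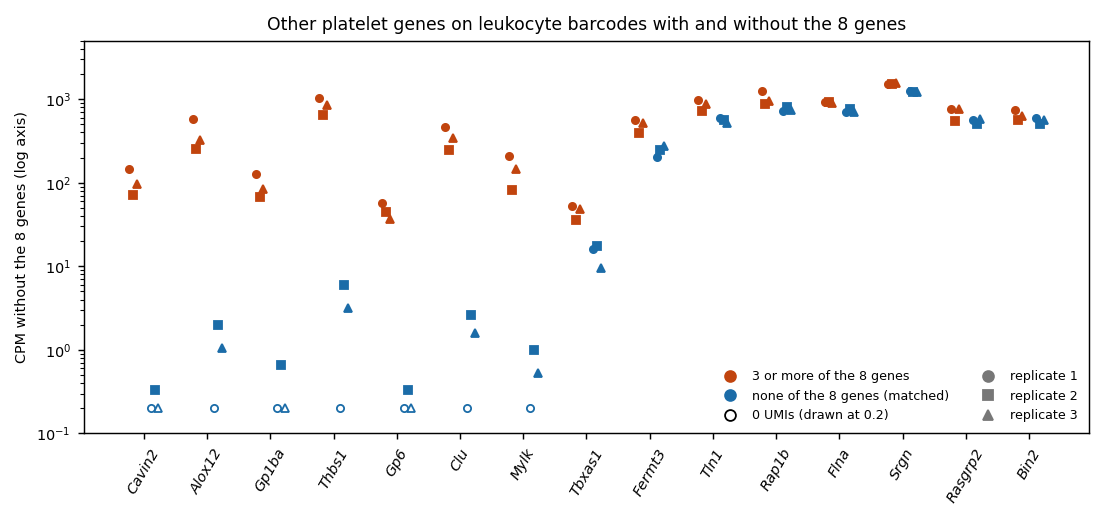
CPM (log axis, member UMIs left out) of 15 called genes from the platelet lists, ordered from the highest log2 folds (left) to the lowest (right), in joint leukocytes (left of each pair) and matched leukocytes without the 8 genes (right), 1 symbol for each replicate, with 0 drawn as open symbols at 0.2. The left-hand genes are nearly absent without the 8 genes, and the right-hand genes are high in both sets.

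Outside the lists, the genes with the highest log2 folds were Rhoj, Cavin1, Mest, Fhl1, Slc24a3 and Ltbp1. Rhoj, a small GTPase, had 63 UMIs on joint barcodes and 0 on matched barcodes, at least 62.2-fold higher against a floor of 3 counts over the group. Cavin1, which forms caveolae with Cavin2, was at least 58.2-fold higher, the imprinted gene Mest at least 56.2-fold and the ion exchanger gene Slc24a3 at least 45.4-fold, each with 0 UMIs on matched barcodes. Fhl1 had a ratio of 336 (114 to 1639) from 341 UMIs on joint and 3 on matched barcodes. Ltbp1, a binding protein of latent TGF-beta, had a ratio of 293 (51.4 to 11689) from 99 and 1 UMI. Of the 260 genes higher in joint leukocytes, 256 (98.5%) had a higher CPM in platelet events than in the matched leukocytes, against 12.4% of all genes tested. Both comparisons use the same matched leukocytes, and the arms were chosen by platelet RNA. The difference between these shares is therefore partly built in and is a description. For B cells alone, 246 genes were higher, of which 206 were shared, 79.2% of the 260 and 83.7% of the 246.

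Among receptors and markers of the leukocytes themselves, 1 gene was called. Of 7 tested leukocyte receptors for platelets, among them Selplg, the P-selectin ligand, and Itgam, a chain of Mac-1, 0 were called by edgeR (1 at an unadjusted p under 0.05, 0 by DESeq2). Selplg averaged 355 ± 69.5 CPM in joint and 412 ± 40.9 CPM in matched leukocytes. The 7 tested erythroid genes had log2 folds of 0.47 to 2.04, and 0 were called by edgeR (1 at an unadjusted p under 0.05, 2 higher by DESeq2). Of the 35 tested markers of the 5 leukocyte classes, the neutrophil gene Retnlg was called lower (log2 fold -0.45, SE 0.11, edgeR adjusted p = 0.0102) and the others were not called by edgeR. DESeq2 did not call Retnlg, and replicate 1 went the other way, with 118, 299 and 136 CPM in joint leukocytes of replicates 1, 2 and 3, against 85.3, 436 and 225 CPM in matched leukocytes. All tested markers of neutrophils, T cells and NK cells had log2 folds under 0, with medians of -0.26, -0.21 and -0.28. The lowest log2 folds were those of Igkv4-91 (-2.75) and Trbv19 (-2.60), variable genes of the antibody light chain and of the T cell receptor. Rcn1 (-1.53), Prr7 (-0.92), Il18r1 (-0.86) and Ap2a1 (-0.55) followed, and all 6 lost their call without replicate 3.

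Across the 15 sums of 5 classes in 3 libraries, genes whose level was among the most like the mean of the 8 genes were Fhl1 (Pearson r = 0.965 on log2(CPM + 1)), Cald1 (0.933), Rbpms2 (0.900), Slc6a4 (0.884) and Eps8l1 (0.863). These values are a description, since classes of 1 library share its depth and any free RNA in it. Fhl1 averaged 1.66, 11.4 and 7.17 CPM over the classes of replicates 1, 2 and 3, in the order of the 8 genes. Slc6a4 encodes the serotonin transporter of platelets.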

How the data were processed

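Per the labels' protocols, blood leukocytes were fixed and counted with the 10x Genomics fixed RNA kit in its 16-plex format on a Chromium X. The deposited values are raw, unnormalized UMI counts for each gene on each barcode. They were made with Cell Ranger 7.1.0, per the file headers, and neither build nor probe set is given in the sources used here. The lists deposited beside them hold identifiers only. The lowest barcode totals were 505, 499 and 504 UMIs, so the matrices hold called barcodes.

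The 8 genes, the marker lists and the gene lists were chosen with earlier results of these data known, so no list is independent evidence. Classes were called from raw counts of 6 marker lists with no member. The NK marker Klra9 has no entry in the matrices. Counts per library and class, and per joint and matched arm, were tested with edgeR 4.0.16 (TMM, filterByExpr, robust quasi-likelihood), with the library as a block because both arms come from the same library, with p-values adjusted by Benjamini and Hochberg and called under 0.05. The SE is the log2 fold over the square root of its F value. CPM are summed UMIs scaled to 1000000 for each sum. The fits were tested on simulated counts. Alternatives were DESeq2 1.42.0, Scrublet in scanpy 1.11.5, other filters, scaling, class and joint definitions, and leaving out each library. Scrublet called 6.20%, 2.70% and 0.0569% of barcodes as doublets, and the last, 4 calls, shows that it did not work in replicate 3. Named genes are the 8 members, the 8 highest and 8 lowest called genes of the platelet lists, the 6 highest and 6 lowest called genes outside the lists that moved the same way in all 3 libraries at 20 CPM or more in an arm, and the 6 genes most like the members; 2 genes that these rules name are not reported here. Others were named after their values were seen. Promoters are from RefSeq (GRCm38.p6), where all 8 members matched, and gene spans from GENCODE M21 (GRCm38). Intervals and floors cover counting error only.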

Additional observations from a re-analysis of the deposited data

Results flagged for a closer look

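Barcodes that met no class were outside the comparisons. Of them, 3 or more of the 8 genes were found on 4.61% (41 of 889) in replicate 2 and on 2.72% (19 of 699) in replicate 3, more than the floor of 3 barcodes used here. In replicate 1 it was 0.216% (2 of 925). These shares lie within the range of the leukocyte classes of the same libraries.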

How the results depend on the processing

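The library block pairs the sums of 1 library. Without the block, the counts of members called were 0 lower in monocytes and 0 lower in T cells against B cells, against 2 and 1 with it, and 1 higher in neutrophils against monocytes, against 2 with it, and 3 genes were lower in joint leukocytes, against 10 with it. With no filter on low counts, 2 members were higher in neutrophils than in B cells, 6 lower in monocytes, 6 lower in T cells and 2 lower in NK cells, 6 were higher in neutrophils than in monocytes, and 23 genes were lower in joint leukocytes. DESeq2's Wald test gave 5 members lower in monocytes, 5 lower in T cells, 6 higher in neutrophils than in monocytes, and 2 genes lower in joint leukocytes. Plain library totals gave 4 members lower in monocytes and 20 genes lower in joint leukocytes. With Scrublet calls removed, 1 member was lower in monocytes and 1 gene lower in joint leukocytes. Class calls from 2 markers gave 2 members higher in neutrophils than in B cells and 89.4% joint platelet events, against 96.9%, and calls at 95% of list UMIs gave 2 members lower in T cells. Without the richest barcode of each library, an alternative chosen after seeing the data like plain totals, 2 members were higher in neutrophils than in B cells, 4 lower in monocytes, 3 lower in T cells, and 6 higher in neutrophils than in monocytes. Thinning to 1500 UMIs gave joint shares of 0.461% in monocytes and 92.2% in platelet events. Joint defined by 2 or by 5 genes gave 5 and 19 genes lower. With 1 library left out, counts ranged over 1 to 4 members higher in neutrophils than in B cells, 1 to 4 lower in monocytes, 1 to 3 lower in T cells, 0 to 1 higher in NK cells, 1 to 5 higher in neutrophils than in monocytes, 145 to 295 genes higher and 2 to 24 lower in joint leukocytes. The cause of these moves was not tested. Clec1b kept its calls against B cells and against monocytes under all 12 alternatives run (edgeR or DESeq2 adjusted p up to 0.0226 and 0.0271). Of 28 named genes in joint leukocytes, 16 kept their call in every alternative that tested them. That was all 14 alternatives except for Mest (13) and Slc24a3 (12). None of the log2 folds followed across the alternatives changed sign. The order of classes by joint share did change with depth. Monocytes lay above T cells in all 3 libraries at full depth, but below them in 2 when thinned. Neutrophils lay below monocytes in 2 libraries at full depth, but above them in all 3 when thinned.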
